A study of Mus musculus with 30 samples.

Results

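The step from the second to the third day after optic nerve crush was followed in control retinal ganglion cells of the mouse, in 3 libraries collected 3 days post crush (3dpc) and 3 collected 2 days post crush (2dpc). These 6 of the 30 libraries of the study were chosen by their labels alone, and 16621 of the 24033 usable gene symbols had enough counts to be tested. Both groups came from LSL-Cas9-GFP; Vglut2-Cre mice. In these, cells that express the glutamate transporter Vglut2 make Cas9 and GFP, and an intravitreal AAV2 delivered non-targeting sgRNAs (NT). All 6 control libraries therefore carry Cas9, GFP, the virus and a crushed nerve, and differ by label only in the day of collection. The cells were sorted alive on CD90.2, GFP, the mCherry that travels with the sgRNAs, or a combination of them, and GFP can be made by any retinal cell with a history of Vglut2. The study set these cells beside cells that received sgRNAs against Ssrp1 (SSRP1KO), asking how loss of that histone chaperone subunit bears on gene programs of injured ganglion cells. No age is given. Whether each library of a group is its own animal is not stated, and the p-values then reflect variation among libraries that could be technical.

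Retinal ganglion cells carry the output of the retina to the brain through the optic nerve. Crushing the nerve cuts their axons, and over the following days they switch on growth and stress genes while many genes of mature synaptic and electrical function are reduced, before a large share of the cells die. Microglia, the resident immune cells of the retina, respond in the same days, and interferons, cytokines of antiviral defence, can act on all of these cells.

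The 6 libraries held 9715972 to 26119062 counts, with 15281 to 17321 genes detected. The library labelled NT 2dpc replicate 3 stood apart. It was the shallowest of the 6, and on the leading axis of variation over the 30 libraries (17.8% of the variance) it scored 76.2, beside 65.9, 73.2 and 69.2 in the 3dpc libraries and -4.99 and 5.80 in the other 2dpc libraries. On the second axis the 3dpc libraries scored -24.1, -27.3 and -22.9 and the other 2dpc libraries 8.6 and -1.31. There 2dpc replicate 3 scored -98.7, the lowest of the 30. In CPM, the counts scaled to library size, its Xist level was 3836 CPM and its summed level of 4 Y-linked genes was 0.333 CPM. In the 3dpc libraries Xist was 892, 5.66 and 835 CPM, and in 2dpc replicates 1 and 2 it was 0.517 and 1.19 CPM. The Y-linked sum was 175.8, 227.5 and 159.7 CPM at 3dpc, and 207.3 and 231.9 CPM in 2dpc replicates 1 and 2. Replicates 1 and 3 of 3dpc thus held both female and male RNA, and the mix differed between the days. Ssrp1, the targeted gene of the study, stood at 80.5, 102 and 89.6 CPM at 3dpc, against 78.4, 90.8 and 36.1 CPM at 2dpc. The days overlapped, with a log2 fold change of 0.40 ± 0.23 (SE, edgeR adjusted p = 0.34, quasi-likelihood test with Benjamini-Hochberg adjustment). The 36.1 CPM in 2dpc replicate 3 was the lowest of the NT libraries, of which the next had 50.6 CPM. SSRP1KO libraries had 39.0, 39.4 and 45.4 CPM at 2dpc and 37.8, 38.0 and 40.45 CPM at 3dpc. The day label of 2dpc replicate 3 is in doubt and the values do not settle it. Its sgRNA label was not tested. Every 2dpc mean and range that includes this library carries that doubt, and counts of genes past the test are also given without it. All 10 ganglion cell markers had counts in every library, and they summed to 7242, 7548 and 7091 CPM at 3dpc, against 6360, 6820 and 7093 CPM at 2dpc. Of the 10, 3 passed as lower at 3dpc (30%, beside 3.87% over all genes) and none as higher, so the sums do not speak for each marker.

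Between the days, 1019 genes passed the test (6.13% of those tested), 375 higher at 3dpc (2.26%) and 644 lower (3.87%). The changes were larger downward: the median log2 fold change was 0.77 among the higher genes and -1.16 among the lower, and 93 genes rose and 386 fell by at least 2-fold. All 3 libraries of 3dpc lay on 1 side of all 3 of 2dpc for 372 of the 375 higher and 514 of the 644 lower genes. Over all genes tested, 13.2% were higher and 11.9% lower without overlap. The calls were made on the same libraries, so this separation is no added evidence. Without 2dpc replicate 3, 949 genes passed, 280 higher and 669 lower, and 673 of them were among the 1019. With only the 6 libraries in the fit, 389 genes passed, 182 higher and 207 lower.

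**Figure D1:**
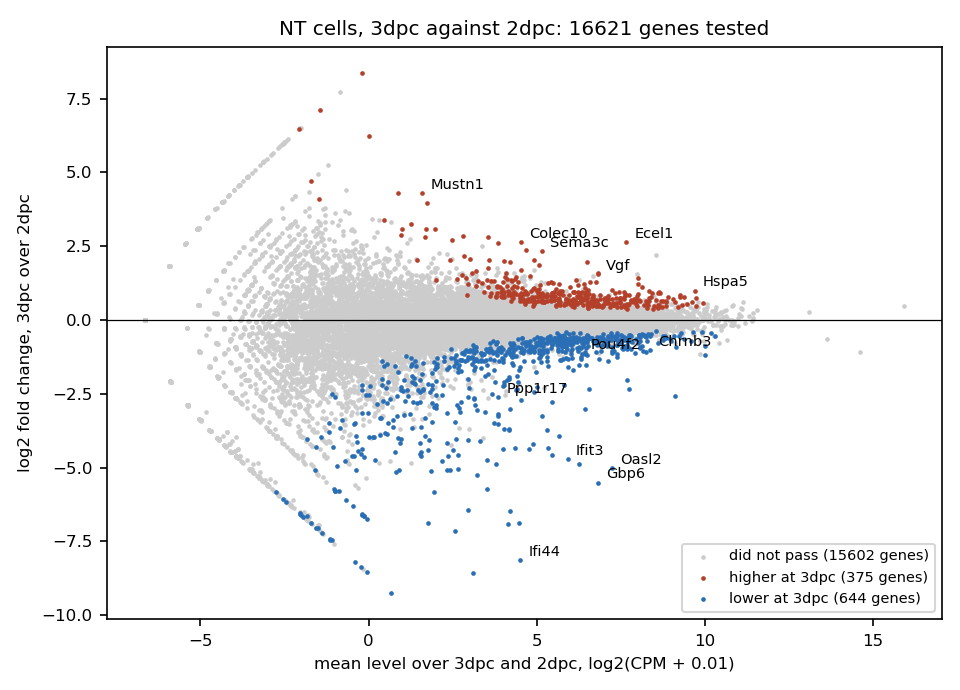
Log2 fold change of 3dpc over 2dpc (vertical axis) against the mean level, log2(CPM + 0.01) (horizontal axis), for the 16621 genes tested. Red points are the 375 genes higher at 3dpc and blue points the 644 lower; the lower genes reach much larger changes, with Ifi44 at -8.14, than named higher genes, with Mustn1 at 4.31.

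Markers of other retinal cells also differed in sum. Photoreceptor markers summed to 820, 825 and 971 CPM at 3dpc, against 331, 442 and 210 CPM at 2dpc, so the days did not overlap, and 20 of 22 had a positive log2 fold change (median 1.20). The list had all 22 markers with counts in every library, and rod transducin Gnat1 was the member that passed (log2 1.60 ± 0.49, edgeR adjusted p = 0.0477), a call that was made again when 2dpc replicate 2 was left out and lost without each of the other 5 libraries. Amacrine markers summed to 780, 622 and 749 CPM at 3dpc, against 1228, 1045 and 1013 CPM at 2dpc. Of the 15, 2 fell (13.3%, beside 3.87% over all genes). Among them was Pax6, at 114, 96.9 and 104 CPM at 3dpc, against 233, 220 and 245 CPM at 2dpc. Pax6 is also made by ganglion cells. Müller glia and bipolar cell sums overlapped between days, at 750 to 921 CPM at 3dpc, against 795 to 908 CPM at 2dpc, and at 183 to 223 CPM at 3dpc, against 186 to 219 CPM at 2dpc. Most of their single markers were nevertheless positive. Of 14 bipolar markers, 12 had a positive log2 fold change (median 1.06) and 7 were higher without overlap, as were 13.2% of all genes tested. Of 18 Müller glia markers, 14 were positive (median 0.57). Prkca, which is not specific to bipolar cells, gave the largest part of the bipolar sum, at 121, 119 and 136 CPM at 3dpc, against 134, 116 and 87.2 CPM at 2dpc, and of the bipolar markers Isl1 and Car8 fell. Among Müller glia markers Dbi was higher. The photoreceptor sum was higher at 3dpc, as were the regeneration-associated and proteasome gene groups described below, and the amacrine sum was lower, as were the receptor and channel groups. The part of other cells in those results was not tested, and in sorted bulk samples fewer cells of a type and less RNA per cell cannot be told apart.

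The 12 largest increases among genes that reached a mean of 5 CPM and did not overlap between days were in Mustn1, Hoxb9, Lamb3, Cd109, Fam167a, Dsp, Mamdc2, Ecel1, Colec10, Cdsn, Xirp2 and Sema3c, with log2 fold changes of 2.32 to 4.31. Ecel1, a membrane peptidase known to be induced in injured neurons, stood at 292, 368 and 380.0 CPM at 3dpc, against 32.8, 47.6 and 86.5 CPM at 2dpc. Every 3dpc library was more than 3 times as high as every 2dpc library, and the log2 fold change was 2.65 ± 0.44 (edgeR adjusted p = 0.000432). Sema3c, a secreted axon guidance cue, stood at 59.8, 59.6 and 56.9 CPM at 3dpc, against 7.36, 9.54 and 19.1 CPM at 2dpc. The 3dpc libraries lay close together and above all of 2dpc (log2 2.32 ± 0.32, edgeR adjusted p = 4.33e-05).

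Colec10, a secreted C-type lectin, stood at 37.4, 50.3 and 31.0 CPM at 3dpc, against 5.77, 6.84 and 6.55 CPM at 2dpc, and the groups did not overlap (log2 2.63 ± 0.54, edgeR adjusted p = 0.00426). Cdsn, which encodes corneodesmosin, an adhesive protein of the skin, had 21.6, 25.1 and 27.7 CPM at 3dpc, against 3.79, 3.56 and 4.88 CPM at 2dpc. Its mean by day was 0.0270 CPM without crush, 0.534 CPM at 1dpc, 4.08 CPM at 2dpc, 24.8 CPM at 3dpc and 15.5 CPM at 4dpc. Xirp2, an actin-binding protein of muscle, had 47.1, 40.4 and 40.0 CPM at 3dpc, against 8.22, 4.75 and 12.2 CPM at 2dpc. Mustn1, a small nuclear protein of muscle and skeletal tissue, was low but separate, with 3.46, 7.64 and 5.96 CPM at 3dpc, against 0.215, 0.246 and 0.444 CPM at 2dpc.

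The other 6 of the 12 reached no more than 20.4 CPM in any library. Lamb3, a laminin chain, had 6.35 to 7.55 CPM at 3dpc, against 0.246 to 1.44 CPM at 2dpc, and Dsp, the desmosome protein desmoplakin, had 4.24 to 6.70 CPM, against 0.646 to 0.983 CPM. Hoxb9, a homeobox gene of the trunk body axis, had 5.94 to 6.62 CPM at 3dpc, against 0 to 0.901 CPM at 2dpc. The calls of Hoxb9, Lamb3, Cd109, Fam167a, Dsp and Mamdc2 were each lost when any of 4 to 6 single libraries was left out (edgeR adjusted p up to 0.132, 0.162, 0.134, 0.153, 0.092 and 0.133), while those of Mustn1, Ecel1, Colec10, Cdsn, Xirp2 and Sema3c passed in all 15 alternatives.

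**Figure D2:**
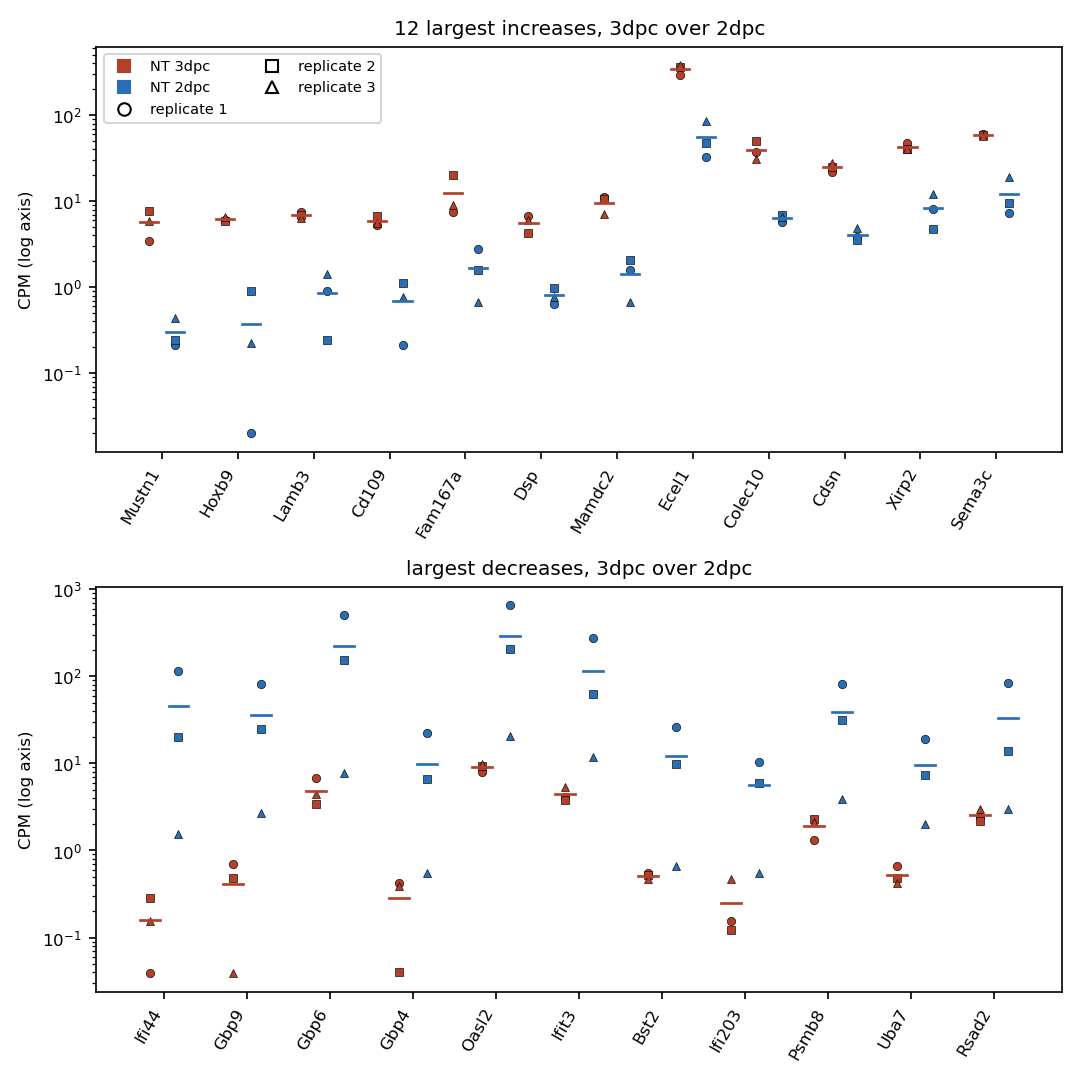
CPM on a log axis in each library for the 12 largest increases (upper panel) and 11 of the 12 largest decreases (lower panel), with 3dpc in red to the left of 2dpc in blue, marker shapes for replicates 1 to 3 and bars at the group means. Hoxb9 in 2dpc replicate 1, which has 0 counts, is drawn at the lowest point of the panel. In the decreases 2dpc replicate 3 (blue triangles) is the lowest of the 2dpc libraries. It lies above every 3dpc library because only genes without overlap between days were chosen.

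Among the 12 largest decreases were Ifi44, Gbp9, Gbp6, Gbp4, Oasl2, Ifit3, Bst2, Ifi203, Psmb8, Uba7 and Rsad2. These 11 are genes that interferon is known to induce. Ifit3, an antiviral protein with tetratricopeptide repeats, stood at 4.09, 3.84 and 5.41 CPM at 3dpc, against 274, 62.7 and 11.8 CPM at 2dpc. All 3dpc libraries were lower than all of 2dpc, which themselves spanned more than 20-fold (log2 -4.71 ± 0.85, edgeR adjusted p = 0.0011). Oasl2, an oligoadenylate synthetase-like protein, stood at 7.90, 9.22 and 9.81 CPM at 3dpc, against 651, 203 and 20.6 CPM at 2dpc (log2 -5.03 ± 1.02, edgeR adjusted p = 0.00356). Ifi44 had 0.0389, 0.283 and 0.156 CPM at 3dpc, against 115, 20.1 and 1.55 CPM at 2dpc. Rsad2, the antiviral enzyme viperin, had 2.45, 2.18 and 2.96 CPM at 3dpc, against 83.2, 13.9 and 3.00 CPM at 2dpc. In each of these genes 2dpc replicate 1 was highest and replicate 3 was the lowest 2dpc library. That replicate 3 lay above all of 3dpc was required for a gene to be among the 12, and was met narrowly by Rsad2 and widely by Ifi44.

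Over the list of 32 interferon-stimulated genes, 27 fell and none rose (84.4%, beside 3.87% lower over all genes), with a median log2 fold change of -3.61 beside -0.03 over all genes. The 27 included the interferon signalling factors Stat2, Irf1 and Irf7, the antigen presentation genes B2m, H2-K1, H2-D1 and Tap1, and the immunoproteasome subunits Psmb8 and Psmb9. B2m, the light chain of class I molecules, stood at 176, 157 and 139 CPM at 3dpc, against 1923, 795 and 124 CPM at 2dpc, so replicate 3 of 2dpc lay below all of 3dpc (log2 -2.59 ± 0.65, edgeR adjusted p = 0.0168). In 30 of the 32 genes the 2dpc libraries ran in the order replicate 1, 2, 3, and only 16 of the 32 did not overlap between days (11.9% of all genes were lower without overlap). The summed level of the list was 536, 491 and 485 CPM at 3dpc, against 7191, 2659 and 587 CPM at 2dpc.

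The number of interferon-stimulated genes that fell was 30 without 2dpc replicate 3 and 7 without 2dpc replicate 1, and 12, 13 and 11 without 3dpc replicates 1, 2 and 3. With the 6 libraries alone it was 5. Gbp4 and Gbp9 overlap each other and Gbp8 on the same strand, Ifi203 overlaps Mndal, Psmb9 overlaps Tap1 on the other strand, and Gbp6, H2-K1 and H2-D1 have near-identical relatives, so counts within each of these sets are uncertain. The calls of Gbp4, Bst2, Ifi203, Psmb8, Uba7, Rsad2 and Stat2 were lost in at least 1 alternative (edgeR adjusted p up to 0.115, 0.0531, 0.0551, 0.0534, 0.0829, 0.278 and 0.278). Those of Ifi44, Gbp9, Gbp6, Oasl2 and Ifit3 passed in all 15.

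Some markers of immune cells fell with these genes. Of 20 microglia and macrophage markers, 5 fell (C1qb, Csf1r, Ctss, Ptprc and Cd74) and none rose (25.0% lower, beside 3.87%), and the list summed to 286, 253 and 233 CPM at 3dpc, against 680.1, 580.4 and 122.5 CPM at 2dpc. Cd68, a lysosomal protein of macrophages and a large part of the 3dpc sums, went the other way without passing, with 103, 114 and 111 CPM at 3dpc, against 36.2, 38.0 and 55.6 CPM at 2dpc (log2 1.35 ± 0.53, edgeR adjusted p = 0.138). The antigen presentation chaperone Cd74 had 4.48, 4.37 and 7.98 CPM at 3dpc, against 131, 88.2 and 0.222 CPM at 2dpc. Of these 20 markers, 10 fell without 2dpc replicate 3, 2 without replicate 2, none without 2dpc replicate 1 or 3dpc replicate 2 or with the 6 libraries alone, and 1 without 3dpc replicate 1 or 3. Of the 9 T cell markers tested, 2 fell, Cd3e and Cd2 (22.2%, beside 3.87%). The list summed to 3.15, 4.49 and 5.997 CPM at 3dpc, against 13.3, 17.3 and 3.88 CPM at 2dpc. Both of these calls were also made without 2dpc replicate 3 and neither without any of the other 5 libraries. Of the 6 libraries, those with the highest interferon-stimulated sum, 2dpc replicates 1 and 2, were thus also highest in both marker lists. The part of immune cells in the fall of interferon-stimulated genes was not tested.

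Across all NT libraries, the interferon-stimulated sum was 553, 664 and 5814 CPM without crush, 6606, 5332 and 3849 CPM at 1dpc and 2501, 1707 and 1876 CPM at 4dpc, beside the values of 2dpc and 3dpc above. The 3dpc libraries were thus the lowest and the most alike of the control groups. Uncrushed libraries spanned more than 8-fold, so a high level was not limited to crushed nerves. In the SSRP1KO cells the sum was 970, 1401 and 1028 CPM at 3dpc, against 1158, 1446 and 1710 CPM at 2dpc, and these ranges overlapped. The microglia and macrophage sum of the NT libraries was 321, 202 and 204 CPM without crush. It was 1722, 262 and 417 CPM at 1dpc and 387, 512 and 733 CPM at 4dpc. Replicate 1 of 1dpc was thus high in both sums, while uncrushed replicate 3 was high in the interferon-stimulated sum and not in the microglia sum.

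**Figure D3:**
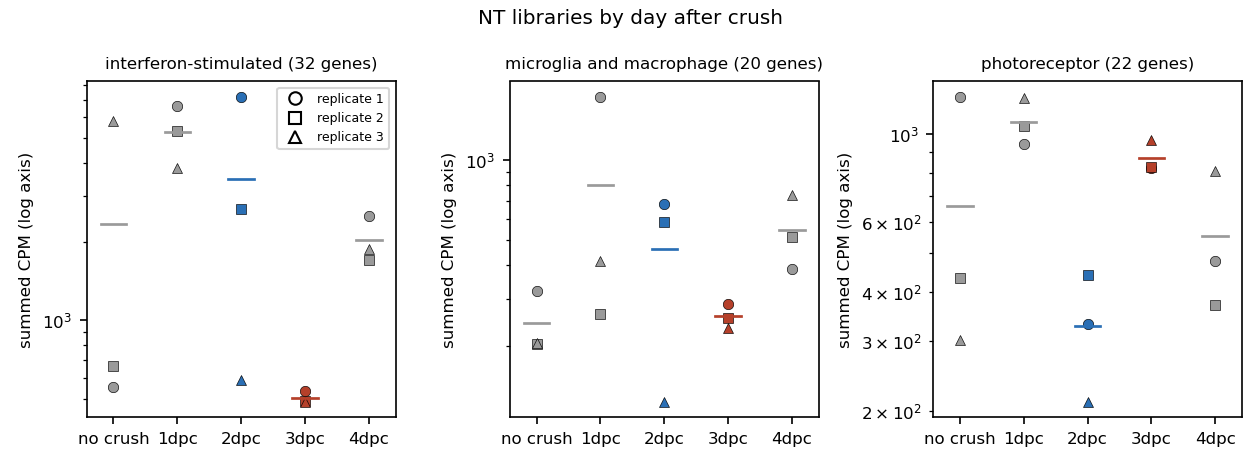
Summed CPM on a log axis of the interferon-stimulated genes (left), microglia and macrophage markers (middle) and photoreceptor markers (right) in each NT library by day, with 3dpc in red, 2dpc in blue, other days in grey, bars at group means and marker shapes for replicates. The 3dpc libraries are the lowest control group for interferon-stimulated genes (485 to 536 CPM), and 2dpc replicate 3 (587 CPM) lies next to them.

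Promoters of 3 of the interferon-stimulated genes that fell are shown because they carry the core of the interferon-stimulated response element, which transcription factors activated by interferon are known to bind. The letters GAAA, any 2 bases and GAAA again were searched on both strands from 250 bases before to 50 bases after each RefSeq gene start (GRCm38.p6). They occurred in 13 of the 24 interferon-stimulated genes with a window (54.2%) and in 447 of the 12236 tested genes with one (3.65%). Of all genes that passed as lower, 40 of the 462 with a window held them (8.66%), so most did not, and of those higher 14 of 286 did (4.9%). Capitals mark the matches, written in the direction of the gene. The windows are chr19:34583279-34583578 (plus strand) for Ifit3, chr12:26456403-26456702 (minus strand) for Rsad2 and chr8:71537423-71537722 (minus strand) for Bst2, each from upstream sequence into the first exon. In Ifit3 the matches begin 156 and 122 bases before the start, in Rsad2 120 bases before it, and in Bst2 there are 2 overlapping matches that begin 130 and 124 bases before it. The motif was chosen after the values were seen, and a match is a description of the letters only.
Ifit3: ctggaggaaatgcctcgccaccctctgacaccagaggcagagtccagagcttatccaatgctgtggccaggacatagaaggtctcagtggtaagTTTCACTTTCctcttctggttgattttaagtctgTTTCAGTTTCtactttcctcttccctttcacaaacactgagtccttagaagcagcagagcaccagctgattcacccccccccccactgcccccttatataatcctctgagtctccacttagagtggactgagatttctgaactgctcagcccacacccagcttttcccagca
Rsad2: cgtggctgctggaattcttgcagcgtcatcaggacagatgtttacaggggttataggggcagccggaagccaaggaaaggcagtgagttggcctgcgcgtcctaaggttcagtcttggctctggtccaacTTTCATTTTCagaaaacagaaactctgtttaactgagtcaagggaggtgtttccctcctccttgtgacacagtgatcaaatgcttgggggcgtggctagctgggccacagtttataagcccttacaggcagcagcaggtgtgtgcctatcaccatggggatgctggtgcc
Bst2: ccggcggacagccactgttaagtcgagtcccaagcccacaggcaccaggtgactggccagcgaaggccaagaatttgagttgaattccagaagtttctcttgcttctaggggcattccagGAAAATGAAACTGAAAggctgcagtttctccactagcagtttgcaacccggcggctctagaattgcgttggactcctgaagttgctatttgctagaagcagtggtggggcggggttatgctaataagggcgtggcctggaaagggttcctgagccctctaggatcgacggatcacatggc

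Among the genes that rose, the AP-1 letters TGANTCA, which dimers of Fos, Jun and Atf3 proteins are known to bind, were searched in the same windows on both strands. They occurred in 28 of the 286 higher genes with a window (9.79%), in 41 of the 462 lower genes (8.87%) and in 815 of all 12236 (6.66%), and in 4 of the 15 crush-induced secreted and surface genes with a window. Xirp2 was the only one of the 12 largest increases to hold them, out of 7 with a window, while 4 of the 8 largest decreases with a window held them too, and its window on chr2:67445752-67446051 (plus strand) has 1 match, in capitals, that begins 107 bases before the start.
Xirp2: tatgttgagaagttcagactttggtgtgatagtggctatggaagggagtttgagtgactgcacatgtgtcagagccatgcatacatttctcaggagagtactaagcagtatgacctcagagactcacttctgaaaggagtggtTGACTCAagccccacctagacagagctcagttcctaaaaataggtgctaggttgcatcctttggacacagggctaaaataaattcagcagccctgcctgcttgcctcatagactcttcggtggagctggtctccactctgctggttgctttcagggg

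Crush-induced secreted and surface genes, a list of 23 drawn up with earlier results of these libraries known and so no independent evidence of direction, had 7 members higher (Colec10, Ecel1, Cdsn, Mustn1, Dusp9, Itga5 and Sema3c) and 1 lower, with a median log2 fold change of 1.20. The list summed to 1868 to 2039 CPM at 3dpc, against 771 to 1044 CPM at 2dpc, with 1897 to 2367 CPM at 4dpc. The higher members were 30.4% of the list, beside 2.26% over all genes. Without 2dpc replicate 3, 7 were higher and 2 lower. Plat, the tissue plasminogen activator, moved the other way, with 45.4, 46.4 and 45.3 CPM at 3dpc, against 94.5, 89.6 and 158 CPM at 2dpc (log2 -1.32 ± 0.18, edgeR adjusted p = 4.03e-05). Its mean was 12.1 CPM without crush, 60.8 CPM at 1dpc, 114 CPM at 2dpc, 45.7 CPM at 3dpc and 29.4 CPM at 4dpc, so 2dpc was the highest of the 5 control groups. Sprr1a, a small proline-rich protein of regenerating neurons, had 573, 619 and 652 CPM at 3dpc, against 174, 146 and 78.2 CPM at 2dpc, without overlap, but did not pass (log2 2.21 ± 0.71, edgeR adjusted p = 0.062).

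Of 34 regeneration-associated genes, 10 were higher and none lower (29.4%, beside 2.26% higher over all genes), with a median log2 fold change of 0.62. They were the transcription factors Atf3 and Klf6, the peptidase Ecel1, the tubulin Tubb6, the secreted peptides Adcyap1 and Vgf, the adhesion proteins Flrt3 and Itga5, and the cytokine receptors Lifr and Il6st. Atf3, a factor induced by axon injury, stood at 418, 490 and 449 CPM at 3dpc, against 206, 198 and 316 CPM at 2dpc (log2 0.92 ± 0.25, edgeR adjusted p = 0.0262). Flrt3, a membrane protein of axon guidance, stood at 241, 218 and 222 CPM at 3dpc, against 125, 125 and 106 CPM at 2dpc (log2 0.93 ± 0.17, edgeR adjusted p = 0.00121). Both were higher in every 3dpc library than in any of 2dpc. Vgf, a granin-family peptide precursor, stood at 140, 187 and 176 CPM at 3dpc, against 56.1, 64.0 and 52.1 CPM at 2dpc (log2 1.55 ± 0.30, edgeR adjusted p = 0.0023), and at a mean of 88.3 CPM at 4dpc.

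Several other regeneration-associated genes did not pass for this step. Gap43, a growth cone protein, had 453, 469 and 419 CPM at 3dpc, against 250, 251 and 379 CPM at 2dpc (edgeR adjusted p = 0.13). Sox11 had 848, 884 and 800 CPM at 3dpc, against 760, 771 and 745 CPM at 2dpc, and Jun overlapped, with 383 to 421 CPM at 3dpc, against 410 to 514 CPM at 2dpc. The count of 10 was 8 without 2dpc replicate 3, 5 without 2dpc replicate 2 and 4 without any of the other 4 libraries. Of the 8 without 2dpc replicate 3, 6 were among the 10. The calls of Atf3, Klf6, Tubb6, Lifr and Il6st were lost in 2 to 9 of the 15 alternatives (edgeR adjusted p up to 0.109, 0.127, 0.186, 0.0826 and 0.193). The 34 genes summed to 7477 to 7993 CPM at 3dpc, against 5552 to 6913 CPM at 2dpc.

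A few stress and protein quality control genes were among those that rose. Hspa5, the main chaperone of the endoplasmic reticulum (BiP), stood at 1110, 1116 and 1079 CPM at 3dpc, against 549, 630 and 480 CPM at 2dpc (log2 0.99 ± 0.18, edgeR adjusted p = 0.00132). With Atf6, a sensor of unfolded protein (log2 0.36 ± 0.11, edgeR adjusted p = 0.0393), it was 1 of 2 higher members of the 22 tested genes of that response (9.09%, beside 2.26% over all genes). Of the 22, 19 had a positive log2 fold change, and without 2dpc replicate 3, 1 was higher. The call of Atf6 was lost without each of the 6 libraries (edgeR adjusted p up to 0.154). Of 20 cytosolic heat shock genes, the small heat shock protein Hspb8 and its partner Bag3, which act together in selective autophagy, and Hspa4l were higher (15%, beside 2.26%). Hspb8 stood at 107, 94.4 and 107 CPM at 3dpc, against 44.8, 44.9 and 31.95 CPM at 2dpc (log2 1.34 ± 0.20, edgeR adjusted p = 0.000179). Bag3 stood at 26.9, 26.4 and 29.5 CPM at 3dpc, against 11.4, 13.8 and 8.10 CPM at 2dpc, with no overlap. Hspa1b fell, at 0.467 to 0.662 CPM at 3dpc, against 1.33 to 2.97 CPM at 2dpc, but shares nearly all of its sequence with Hspa1a, which did not pass, and its call was lost in 6 alternatives (edgeR adjusted p up to 0.103). Of the 20 heat shock genes, 2 were higher and 1 lower without 2dpc replicate 3.

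Proteasome subunits, which build the particle that degrades ubiquitin-tagged proteins, were higher in part. Of 32 constitutive subunits 9 passed as higher and none as lower (28.1%, beside 2.26%), and all 32 had a positive log2 fold change, with a median of 0.45. Psmb1, a core subunit, stood at 114, 109 and 128 CPM at 3dpc, against 59.8, 60.2 and 60.3 CPM at 2dpc, and did not overlap (log2 0.96 ± 0.15, edgeR adjusted p = 0.000308). Psmc1, an ATPase of the regulatory cap, stood at 173, 179 and 176 CPM at 3dpc, against 115, 115 and 72.7 CPM at 2dpc (log2 0.80 ± 0.17, edgeR adjusted p = 0.00546). The list summed to 3496 to 3720 CPM at 3dpc, against 2573 to 2919 CPM at 2dpc and 3309 to 3966 CPM at 4dpc. The number of higher subunits was 8 without 2dpc replicate 1 or 3, 4 without 2dpc replicate 2 or 3dpc replicate 1 or 2, and 2 without 3dpc replicate 3 or with the 6 libraries alone. Of the 8 without 2dpc replicate 3, 4 were among the 9. The immunoproteasome subunits Psmb8 and Psmb9, counted with the interferon-stimulated genes, went the other way.

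Of 75 nuclear genes of oxidative phosphorylation, 10 were higher and none lower (13.3% higher, beside 2.26%), with a median log2 fold change of 0.28. The list summed to 7007, 6822 and 7544 CPM at 3dpc, against 5551, 5655 and 7685 CPM at 2dpc, so 2dpc replicate 3 lay above all of 3dpc and the days overlapped. Ndufc1, a subunit of complex I, stood at 34.3, 29.8 and 32.8 CPM at 3dpc, against 21.9, 16.8 and 21.7 CPM at 2dpc (log2 0.68 ± 0.15, edgeR adjusted p = 0.00729), and Uqcr10, a subunit of complex III, at 85.0, 94.0 and 116 CPM, against 53.9, 58.9 and 70.7 CPM. Without 2dpc replicate 3, 10 genes were higher, of which 6 were among the first 10. The number was 1 without 3dpc replicate 3, 3 without 2dpc replicate 1 and 2 with the 6 libraries alone. Ndufc1 and Uqcr10 lost their calls in 2 and 3 alternatives (edgeR adjusted p up to 0.0857 and 0.0852). None of the 77 cytosolic ribosomal protein genes passed (median log2 -0.02). Of 24 kinesin and dynein genes, which carry cargo along axons, Kif3a, Kif3b, Klc2 and Dync1i2 were higher (16.7%, beside 2.26%) and none lower. Only 1 was higher without 2dpc replicate 3, 1 without 3dpc replicate 1 or 2, and none with the 6 libraries alone. Of 25 ribosome biogenesis genes only Rrp12 passed (4% higher, beside 2.26% over all genes). Rrp12 stood at 21.9, 21.2 and 24.7 CPM at 3dpc, against 10.1, 8.15 and 9.43 CPM at 2dpc (log2 1.29 ± 0.23, edgeR adjusted p = 0.000982).

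Of 27 tested p53 target genes, 4 were higher (Cdkn1a, Ccng1, Phlda3 and Zmat3) and 1 lower (Btg2). The shares were 14.8% higher and 3.7% lower, beside 2.26% and 3.87% over all genes. Ccng1, which encodes cyclin G1, stood at 243, 213 and 209 CPM at 3dpc, against 137, 157 and 109 CPM at 2dpc (log2 0.72 ± 0.14, edgeR adjusted p = 0.0015). Cdkn1a, the cell cycle inhibitor p21, stood at 436, 576 and 550 CPM at 3dpc, against 197, 236 and 375 CPM at 2dpc (log2 0.95 ± 0.24, edgeR adjusted p = 0.0177), and lost its call in 5 alternatives (edgeR adjusted p up to 0.101). Without 2dpc replicate 3, 5 were higher and 2 lower, with 4 of the calls the same. Without each of the other libraries 1 or 2 were higher. Of 26 apoptosis genes 1 fell and none rose (3.85% lower, beside 3.87% over all genes). It was Birc5, which encodes survivin and is best known from dividing cells, with 0.0779, 0.0404 and 0 CPM at 3dpc, against 1.46, 1.88 and 1.11 CPM at 2dpc (edgeR adjusted p = 0.0151). Its call was lost without 3dpc replicate 2 or 3 (edgeR adjusted p up to 0.0794). Mki67 and Top2a, markers of dividing cells, also had their highest levels in 2dpc replicates 1 and 2 (Mki67 at 0.117, 0.809 and 1.13 CPM at 3dpc, against 7.32, 10.8 and 0.666 CPM at 2dpc), without passing (edgeR adjusted p = 0.0534 and 0.0514).

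None of 23 genes of the DLK and JNK cascade, which relays axon damage to the nucleus, passed the test. Of 41 integrated stress response genes 1 was higher (2.44%, near the 2.26% over all genes) and none lower. It was the tryptophanyl-tRNA synthetase gene Wars, whose call was lost in 7 alternatives (edgeR adjusted p up to 0.148). Without 2dpc replicate 3, 1 DLK and JNK gene was higher, 1 was lower and 1 stress response gene was higher. Atf4, the central factor of that response, had 532, 580.1 and 602 CPM at 3dpc, against 355, 373 and 395 CPM at 2dpc, without overlap but without passing (log2 0.61 ± 0.20, edgeR adjusted p = 0.0644). Ddit3, which it induces, had 195 to 229 CPM at 3dpc, against 248 to 473 CPM at 2dpc (edgeR adjusted p = 0.171). At an unadjusted p under 0.05, 3314 of the 16621 genes differed between the days, so a miss here does not show that a gene was unaltered.

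**Figure D4:**
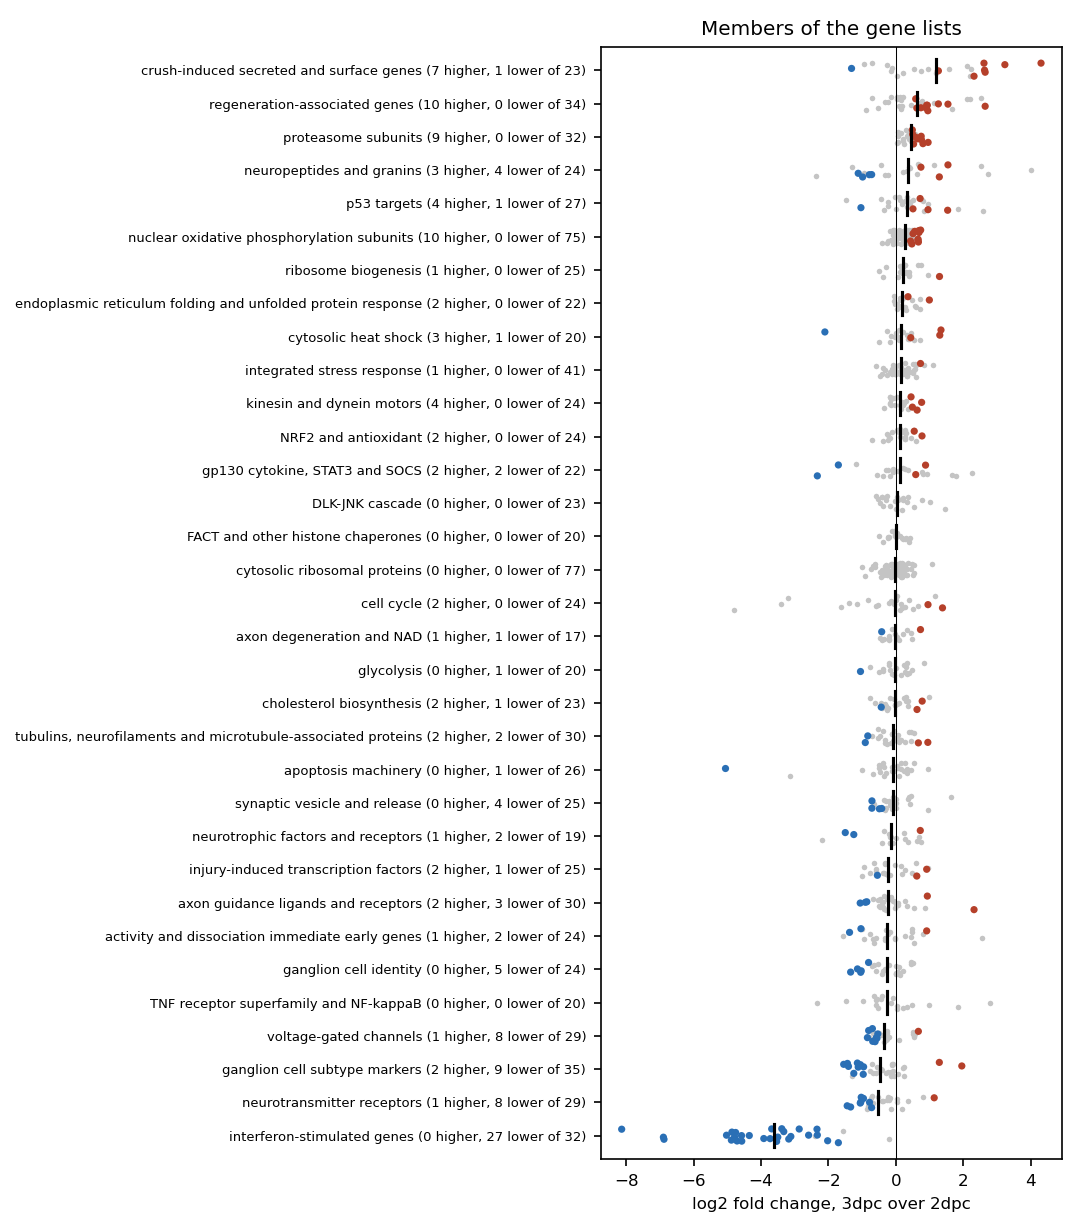
Log2 fold change of 3dpc over 2dpc for the tested members of each functional gene list with at least 10 of them, ordered by median (black bar), with members that passed in red (higher) or blue (lower) and the rest in grey. Interferon-stimulated genes lie at the lower end (median -3.61), followed by neurotransmitter receptors (-0.52) and ganglion cell subtype markers (-0.47), and crush-induced secreted genes at the upper end (1.20).

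Some genes of synaptic input and electrical signalling fell, while most members of these lists did not pass. Of 29 neurotransmitter receptor genes, 8 fell and 1 rose (27.6% lower, beside 3.87%), with a median log2 fold change of -0.52. The 8 included the glutamate receptor subunits Gria2, Grin2a and Grin2b, the GABA receptor subunit Gabrb2, the nicotinic subunits Chrna6 and Chrnb3, and the histamine receptor Hrh3. Gria2, which sets the calcium permeability of AMPA receptors, stood at 190, 170 and 185 CPM at 3dpc, against 409, 396 and 254 CPM at 2dpc (log2 -0.96 ± 0.18, edgeR adjusted p = 0.00152). Chrnb3, a nicotinic subunit abundant in ganglion cells, stood at 249, 201 and 204 CPM at 3dpc, against 512, 458 and 364 CPM at 2dpc (log2 -1.03 ± 0.16, edgeR adjusted p = 0.000272). Gabrb2 stood at 134, 136 and 129 CPM at 3dpc, against 217, 218 and 249 CPM at 2dpc (log2 -0.78 ± 0.13, edgeR adjusted p = 0.000383). In these 3 genes every 3dpc library was below every 2dpc library, and 2dpc replicate 3 was nearest to 3dpc for Gria2 and Chrnb3.

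The 29 receptors summed to 2347, 2162 and 2228 CPM at 3dpc, against 3485, 3358 and 2679 CPM at 2dpc. Their range by day was 5710 to 6009 CPM without crush, 4339 to 4836 CPM at 1dpc, 2679 to 3485 CPM at 2dpc, 2162 to 2347 CPM at 3dpc and 1842 to 1931 CPM at 4dpc, with no overlap between neighbouring days. The number of receptors that fell was 13 without 2dpc replicate 3 and 7 or 8 without each of the other libraries. Glra1, a glycine receptor subunit, was the member that rose, at 33.8, 24.6 and 24.5 CPM at 3dpc, against 15.1, 9.42 and 13.2 CPM at 2dpc, and its call was lost without each of the 6 libraries (edgeR adjusted p up to 0.178).

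Of 29 voltage-gated channel genes tested, 8 fell (27.6%, beside 3.87% over all genes) and 1 rose, with a median log2 fold change of -0.34. Those that fell included the sodium channel genes Scn1a, Scn2a1, Scn3a and Scn3b, the potassium channel genes Kcna2 and Kcnab2 and the calcium channel gene Cacnb4. Scn3a stood at 108, 133 and 115 CPM at 3dpc, against 210, 197 and 231 CPM at 2dpc, with no overlap (log2 -0.84 ± 0.12, edgeR adjusted p = 6.07e-05). Its mean by day was 155 CPM without crush, 175 CPM at 1dpc, 213 CPM at 2dpc, 119 CPM at 3dpc and 128 CPM at 4dpc. Kcnab2, an auxiliary subunit, stood at 107, 113 and 116 CPM at 3dpc, against 188, 199 and 158 CPM at 2dpc (log2 -0.70 ± 0.12, edgeR adjusted p = 0.000432). Kcna1 was the gene that rose, at 355, 315 and 307 CPM at 3dpc, against 224, 207 and 184 CPM at 2dpc (log2 0.67 ± 0.16, edgeR adjusted p = 0.0131), and lost its call without 3dpc replicate 1 (0.0651). The number of lower genes was 8 without 2dpc replicate 3 and 6 without 2dpc replicate 1 or 2 or 3dpc replicate 1. It was 4 without 3dpc replicate 2 or with the 6 libraries alone and 3 without 3dpc replicate 3. Of the channel genes called in either direction, 7 passed both with and without 2dpc replicate 3.

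**Figure D5:**
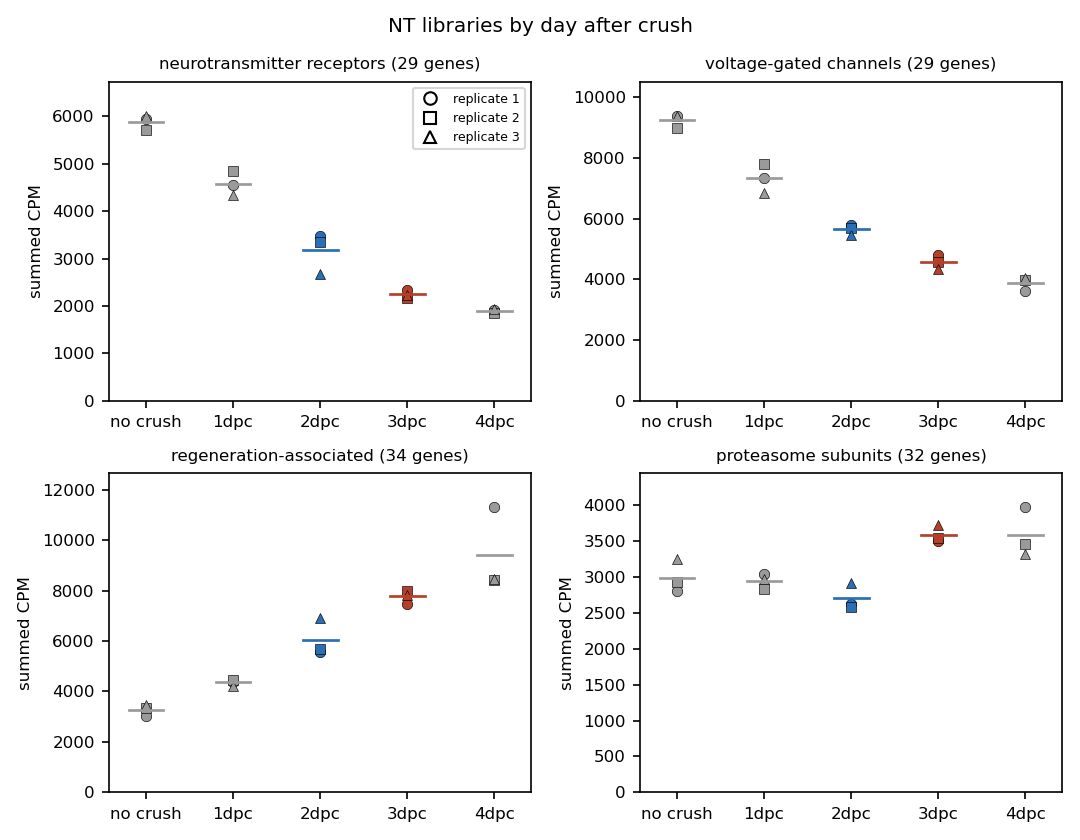
Summed CPM by day in each NT library for neurotransmitter receptors, voltage-gated channels, regeneration-associated genes and proteasome subunits, all axes starting at 0, with 3dpc in red, 2dpc in blue, other days in grey, bars at group means and marker shapes for replicates. Receptor sums fall to 2162 to 2347 CPM at 3dpc, against 2679 to 3485 CPM at 2dpc, while proteasome sums stand at 3496 to 3720 CPM at 3dpc, against 2573 to 2919 CPM at 2dpc.

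Of 25 genes of synaptic vesicle release, 4 fell, among them Sv2a, Cplx2 and Rims1, and none rose (16% lower, beside 3.87% over all genes). The count was 1 without 2dpc replicate 3 and 0 without 3dpc replicate 1 or 3. Rims1, a scaffold of the release site, stood at 50.4, 59.7 and 54.0 CPM at 3dpc, against 77.8, 71.4 and 120 CPM at 2dpc. Its call was lost in 5 alternatives (edgeR adjusted p up to 0.152).

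Transcription factors and markers that define ganglion cells fell in part. Of 24 identity genes, 5 fell (Rbpms2, Pou4f2, Isl1, Chrna6 and Chrnb3) and none rose (20.8% lower, beside 3.87% over all genes). Without 2dpc replicate 3, 5 fell, of which 4 were among these. Chrna6 and Chrnb3 are also counted with the receptors. Pou4f2 (Brn3b), a factor needed for ganglion cell differentiation, stood at 52.9, 51.9 and 47.3 CPM at 3dpc, against 127, 111 and 97.0 CPM at 2dpc. The groups lay about 2-fold apart with no overlap (log2 -1.14 ± 0.15, edgeR adjusted p = 2.48e-05), and the mean at 4dpc was 45.9 CPM. Pou4f1 (Brn3a) had 135, 164 and 133 CPM at 3dpc, against 274, 274 and 134 CPM at 2dpc, overlapped and did not pass (edgeR adjusted p = 0.0511). General ganglion cell genes did not pass either: Slc17a6, which encodes Vglut2, had 1679, 1555 and 1443 CPM at 3dpc, against 1238, 1395 and 2040 CPM at 2dpc, and Rbpms had 230, 242 and 241 CPM, against 288, 301 and 235 CPM.

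Of 35 markers of ganglion cell subtypes, 9 fell (25.7%, beside 3.87% over all genes) and 2 rose (5.71%, beside 2.26%). The counts were the same without 2dpc replicate 3. Foxp2, a marker of the F-type ganglion cells, stood at 14.6, 19.9 and 26.7 CPM at 3dpc, against 41.7, 45.8 and 58.2 CPM at 2dpc (log2 -1.25 ± 0.24, edgeR adjusted p = 0.00241). Spp1, osteopontin, a marker of alpha ganglion cells, rose, with 179, 114 and 139 CPM at 3dpc, against 47.6, 41.2 and 21.7 CPM at 2dpc (log2 1.96 ± 0.45, edgeR adjusted p = 0.00927). Its mean was 50.6 CPM without crush, 97.9 CPM at 1dpc, 36.8 CPM at 2dpc, 144 CPM at 3dpc and 129 CPM at 4dpc, so 2dpc had the lowest mean of the 5 control groups. Penk, proenkephalin, stood at 130, 138 and 136 CPM at 3dpc, against 44.5, 49.7 and 71.6 CPM at 2dpc (log2 1.29 ± 0.24, edgeR adjusted p = 0.00121). The 9 decreases were 2 to 4 when any single library other than 2dpc replicate 3 was left out, and 3 with the 6 libraries alone.

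Among neuropeptide and granin genes, 3 of 24 rose (Adcyap1, Penk and Vgf) and 4 fell (Tac1, Cartpt, Chgb and Pcsk2). The shares were 12.5% higher and 16.7% lower, beside 2.26% and 3.87% over all genes. Cartpt, a peptide of direction-selective ganglion cells, stood at 182, 127 and 152 CPM at 3dpc, against 373, 342 and 285 CPM at 2dpc (log2 -1.12 ± 0.29, edgeR adjusted p = 0.0185), and Tac1, the substance P precursor, at 115, 161 and 175 CPM, against 307, 375 and 210 CPM. Both lacked overlap, and both lost their calls in some alternatives, Cartpt in 3 (edgeR adjusted p up to 0.102) and Tac1 in 5 (up to 0.127). The list again had 3 members higher and 4 lower without 2dpc replicate 3, with 6 of the calls the same. Only 2 were higher and 3 lower without 2dpc replicate 2. The 4 decreases became 1 without 3dpc replicate 1 or 3 and none without 3dpc replicate 2 or 2dpc replicate 1.

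Of the trophic factor genes, the neurotrophin-3 receptor Ntrk3 fell, with 19.2, 28.9 and 22.1 CPM at 3dpc, against 53.3, 61.4 and 51.8 CPM at 2dpc (log2 -1.25 ± 0.16, edgeR adjusted p = 2.48e-05). In all, 2 of the 19 tested fell (10.5%, beside 3.87% over all genes) and 1, Fgfr1, rose (5.26%, beside 2.26%). Bdnf had 121, 116 and 115 CPM at 3dpc, against 71.7, 64.4 and 82.0 CPM at 2dpc, with no overlap (log2 0.69 ± 0.24, edgeR adjusted p = 0.0868). Of 30 axon guidance genes, Sema3c and Flrt3 rose (6.67%, beside 2.26%) and Sema5a, Nrp1 and Epha4 fell (10%, beside 3.87%). Epha4, a receptor for repulsive ephrins, stood at 116, 110 and 90.2 CPM at 3dpc, against 168, 180 and 245 CPM at 2dpc (log2 -0.91 ± 0.16, edgeR adjusted p = 0.000682). Nrp1, a co-receptor for class 3 semaphorins, stood at 31.8, 37.0 and 37.5 CPM at 3dpc, against 72.5, 63.3 and 57.4 CPM at 2dpc (log2 -0.86 ± 0.20, edgeR adjusted p = 0.00793), and lost its call without 3dpc replicate 1 (0.0523). Fgfr1 lost its call in 6 alternatives (edgeR adjusted p up to 0.129). Without 2dpc replicate 3, 1 trophic gene was higher and 1 lower, and 2 guidance genes were higher and 3 lower.

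Cast, which encodes calpastatin, an inhibitor of the calpain proteases of axon breakdown, stood at 114, 112 and 112 CPM at 3dpc, against 66.7, 71.5 and 65.2 CPM at 2dpc (log2 0.73 ± 0.14, edgeR adjusted p = 0.00255). Of 17 axon degeneration and NAD genes it was the 1 that rose (5.88%, beside 2.26% over all genes). Mycbp2, a ubiquitin ligase, was the 1 that fell (5.88%, beside 3.87%). Its log2 fold change was -0.42 ± 0.12 (edgeR adjusted p = 0.027), a call lost in 5 alternatives (edgeR adjusted p up to 0.137). Srxn1, a sulfiredoxin under the oxidative stress factor NRF2, stood at 812, 867 and 850 CPM at 3dpc, against 468, 490 and 519 CPM at 2dpc (log2 0.78 ± 0.17, edgeR adjusted p = 0.00611). Of 24 genes of that list 2 rose (8.33%, beside 2.26% over all genes), or 1 without 2dpc replicate 3. The cholesterol synthesis enzyme gene Sqle stood at 113, 132 and 143 CPM at 3dpc, against 69.2, 80.1 and 76.9 CPM at 2dpc (log2 0.78 ± 0.16, edgeR adjusted p = 0.004). Of 23 cholesterol genes, Sqle and Msmo1 were higher (8.7%, beside 2.26%) and Srebf2 lower (4.35%, beside 3.87%). The median log2 fold change was -0.04, and 2 were higher and none lower without 2dpc replicate 3. Msmo1 and Srebf2 lost their calls in 3 and 7 alternatives (edgeR adjusted p up to 0.0739 and 0.22). In Cast, Srxn1 and Sqle the groups did not overlap and the call passed in all 15 alternatives.

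The same step in SSRP1KO cells, 3 libraries of 3dpc and 3 of 2dpc that share none with the control cells, gave 37 genes past the test (0.223%), 11 higher (0.0662%) and 26 lower (0.156%). Of these libraries, 3dpc replicate 2 had a photoreceptor sum of 5042 CPM, beside 902 and 765 CPM in the others of 3dpc. On the leading axis 2dpc replicate 5 scored -12.9, beside 9.92 and 12.4 in the others of 2dpc. Xist was 1254, 4398 and 1281 CPM at 3dpc, against 0.350, 0.336 and 0.856 CPM at 2dpc. The part of these differences in the count of 37 was not tested. Ssrp1 itself stood at 38.8 ± 1.47 CPM at 3dpc, against 41.3 ± 3.59 CPM at 2dpc in these cells (SD, n = 3 each). Of the 375 genes higher in control cells, 324 (86.4%) also had a positive log2 fold change in SSRP1KO cells, beside 51.2% of all genes tested, and of the 644 lower, 527 (81.8%) had a negative one, beside 48.8%. Of these, 8 and 18 passed in both in the same direction, and none passed in opposite directions. Ecel1 rose in SSRP1KO cells by 2.08 ± 0.43 (edgeR adjusted p = 0.0337) and Plat fell by 0.81 ± 0.18 (0.0392). Cd44, a hyaluronan receptor named here after its values were seen, stood at 47.2, 50.2 and 47.4 CPM at 3dpc, against 12.1, 11.3 and 11.8 CPM at 2dpc in control cells, and rose by 1.86 ± 0.40 on the log2 scale in SSRP1KO cells (edgeR adjusted p = 0.0386).

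The difference between the 2 steps was tested for each gene as an interaction, and no gene passed with edgeR, with 1635 genes at an unadjusted p under 0.05 and a smallest adjusted p of 0.0841. DESeq2 called 98 genes and limma voom with sample quality weights 149, and edgeR called 84 without the 3 libraries that stood apart (NT 2dpc replicate 3, SSRP1KO 2dpc replicate 5 and SSRP1KO no crush replicate 3). Whether the steps differ is therefore not settled by these libraries. For Pou4f2 the step was -1.14 ± 0.15 in control cells and -0.22 ± 0.15 in SSRP1KO cells (edgeR adjusted p of the difference 0.119). For Ifit3 it was -4.71 ± 0.85 and -1.49 ± 0.75 (edgeR adjusted p of the difference 0.315), and for Spp1 1.96 ± 0.45 and -0.62 ± 0.43 (edgeR adjusted p of the difference 0.152).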

How the data were processed

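RNA of sorted retinal ganglion cells was sequenced as 69 bp paired reads from a SMART-Seq v4 low-input kit, per the labels' protocols. The deposited table holds raw whole-number counts by gene symbol in 30 libraries in 10 groups of 3. Named in the submitters' processing notes, with no roles, are STAR, HTSeq, bcl2fastq 2.17 and GRCm38 (mm10). No source used here gives the annotation, the strand setting or the handling of reads with several matches, so overlapping, antisense and near-identical genes carry counts that cannot be told apart.

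Of 24060 symbols, 27 had turned into calendar dates (at most 0.275% of a library's counts) and were left out. The test was that of edgeR 4.0.16, run in R 4.3.3: TMM scaling, filterByExpr (16621 genes kept), a quasi-likelihood fit with 1 coefficient per group over all 30 libraries and 20 residual degrees of freedom, two-sided tests, and Benjamini-Hochberg adjustment over all genes with a threshold of 0.05. The SE is the log2 fold change divided by the square root of F. CPM uses TMM-scaled library sizes and is not scaled by length, so levels are not compared between genes. The total counts of the 6 libraries, 9715972 to 26119062, set the precision of low genes, and the reads carry no molecular identifiers. Sums are over all list members in the table, and a call is a gene past the threshold.

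Alternatives were DESeq2 1.42.0, its size factors, no filter, the 6 or the 15 NT libraries alone, a replicate block, a sex score, limma 3.58.1 voom with quality weights, each library left out, and, added after the data were seen, 3 libraries left out together. The tests were checked on simulated counts. Replicates of the same day were compared by a chi-square test of their counts. The lowest value was 15.7 per degree of freedom, so none was a repeat of another of its own day. Libraries of different days were not compared in this way.

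The comparison, the gene lists and the naming rule were chosen with earlier results of these data known. The rule named the 12 largest changes each way among genes past the threshold, at a mean of 5 CPM or more in the higher group and without overlap between days, passing over predicted genes, and up to 2 members of each list each way with the smallest adjusted p. Other genes are named as members of a list count or after their values were seen. Promoter windows came from RefSeq (GRCm38.p6) and matched 12236 tested symbols (73.6%), and overlaps from GENCODE M21, which held 15804 (95.1%). Figures used Python 3.11.15 and matplotlib 3.10.9. The table of repeat intervals was not used here. Some members of the lists and of the largest changes are counted but not reported here by name.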

Additional observations from a re-analysis of the deposited data

How the results depend on the processing

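Against 1019 genes called (375 higher, 644 lower), edgeR called 389 with the 6 libraries alone (182 higher, 207 lower, 53.2% lower beside 63.2%), and leaving out 1 of the 6 gave 387 to 949 (133 to 280 higher, 242 to 669 lower). Adding counts, DESeq2 called 1533 (548 higher, 985 lower), limma voom with quality weights 3344 (1557 higher, 1787 lower, 53.4% lower), and leaving out the 3 libraries that stood apart 1742 (665 higher, 1077 lower). DESeq2 size factors gave 1019, no filter 954, the 15 NT libraries 1028 and the sex score 923. No gene called had the opposite sign in any of these. Of the 85 named genes that passed, 34 passed in all 15 alternatives and 51 were lost in at least 1, and the cause of those losses was not tested.

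For the difference between the SSRP1KO and NT steps, 0 genes in edgeR became 98 with DESeq2, 149 with limma voom, 84 without the 3 libraries and 0 to 1 with 1 library left out. Libraries with the same replicate number deviated together only weakly (correlations of 0.0455, 0.0201 and 0.0447), so the numbers were not taken to pair them; the replicate block gave 1205 genes (487 higher, 718 lower) and 0 for the difference.

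The shallowest library, 2dpc replicate 3 with 9715972 counts, limits what can be said of genes of a few CPM at 2dpc, and 3 libraries a day limit small changes.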

Other observations

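Some of the smallest adjusted p-values belonged to genes outside every list, and those below were picked after their values were seen. Zfand2a, a zinc finger gene of the arsenite and heat stress response that acts with the proteasome, stood at 375, 364 and 392 CPM at 3dpc, against 147, 150 and 123 CPM at 2dpc (log2 1.43 ± 0.15, edgeR adjusted p = 2.73e-06). Its mean was 143 CPM without crush, 148 CPM at 1dpc, 140 CPM at 2dpc, 377 CPM at 3dpc and 333 CPM at 4dpc, so the increase was seen between 2dpc and 3dpc and not before. In SSRP1KO cells Zfand2a changed by 0.36 ± 0.15, which did not pass (edgeR adjusted p = 0.315, and 0.0841 for the difference). Rab15, a GTPase of endosome recycling, stood at 328, 378 and 366 CPM at 3dpc, against 156, 157 and 149 CPM at 2dpc (log2 1.22 ± 0.14, edgeR adjusted p = 7.23e-06).

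Among the decreases, Slc12a5, the neuronal chloride exporter KCC2, stood at 217, 196 and 163 CPM at 3dpc, against 443, 401 and 389 CPM at 2dpc (log2 -1.10 ± 0.15, edgeR adjusted p = 4.04e-05). Lrrtm2, a postsynaptic adhesion protein, stood at 60.2, 65.2 and 73.7 CPM at 3dpc, against 208, 151 and 141 CPM at 2dpc, and Camk2a, the alpha subunit of calcium/calmodulin-dependent kinase II, at 40.8, 41.3 and 37.4 CPM, against 92.6, 86.3 and 90.1 CPM. Pik3r1, a regulatory subunit of phosphoinositide 3-kinase, stood at 92.1, 72.6 and 64.1 CPM at 3dpc, against 229, 227 and 151 CPM at 2dpc. In these 4 genes the days did not overlap.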
